A study of Cavia porcellus with 24 samples.

Results

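The locus described here is a window of 290001 bp on scaffold DS562861.1 of the guinea pig genome build cavPor3, from position 26150000 to 26440000, with a core of 601 bp between 26299900 and 26300500. The window held 398 listed cytosines of 313 CpGs on both strands, of 3233055 cytosines listed in either tissue of the series. Of these, 377 were listed in the hippocampus (HPC), 372 in whole blood and 351 in both. The core held 28 cytosines of 23 CpGs, all listed in both tissues. The window and its core were chosen by measured values, namely a higher methylation level with prenatal sGC in both tissues. The differences between sGC and control within the core are therefore a description of how the locus was selected, and no test is read from them. No gene name was paired with the core's positions in the sources used here, and a genome sequence of this build was not used here, so the position of the core relative to exons, introns or promoters is not given.

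DNA methylation was measured by reduced representation bisulfite sequencing (RRBS) in 24 samples from 12 juvenile females of the outbred Hartley strain. The 6 sGC animals were born to mothers injected with 3 courses of betamethasone, a synthetic glucocorticoid (sGC), at 1 mg/kg on gestational days 40/41, 50/51 and 60/61, and the 6 control animals to mothers injected with saline. Each animal was the 1 female taken from its litter at postnatal day 14 and gave both hippocampus and blood, so that each of the 4 groups (sGC HPC, control HPC, sGC blood, control blood) held 6 samples. The deposited reads were summed over the 6 animals of a group, which leaves 1 pooled value per group and cytosine. Both tissues are mixtures of cell types. In whole blood and in hippocampus alike, a changed makeup of cells and a changed methylation level within cells cannot be told apart.

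In bisulfite sequencing an unmethylated cytosine is converted and read as T, whereas a methylated cytosine is still read as C, so that the share of C reads gives the methylation level at that position. RRBS cuts DNA at CCGG sites and reads the ends of short fragments, which enriches CpG-rich sequence and leaves other sequence unread. Most CpGs of a mammalian genome are highly methylated, and CpG-rich stretches with low methylation are found at many promoters and regulatory elements. The 2 cytosines of a CpG lie on opposite strands at neighbouring positions, and after DNA replication the methylation of the old strand is normally copied to the new one, which makes the strands of a CpG a check of each other.

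Over all listed cytosines the median coverage was 93 reads in sGC HPC, 86 in control HPC, 98 in sGC blood and 79 in control blood. Median coverage of the core was lower, at 63.5 reads in sGC HPC, 53.5 in control HPC, 50 in sGC blood and 68 in control blood. Single core cytosines had 19 to 200 reads in sGC HPC, 21 to 156 in control HPC, 13 to 214 in sGC blood and 22 to 171 in control blood. Levels below are methylated readings divided by total readings, where 1 reading is 1 read at 1 cytosine, and neighbouring cytosines on the same read share that read. Intervals are 95% Wilson intervals for a level and 95% Newcombe intervals for a difference. They cover at most counting error, and the spread between animals was not analysed here. Intervals of levels summed over cytosines take every reading as independent. Since neighbouring readings share reads, those summed intervals are too narrow even for counting error.

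In the core, methylation was low in the control pools and higher in the sGC pools of both tissues. In the hippocampus 720 of 1953 readings were methylated in the sGC pool (36.9%, interval 34.8 to 39.0%) and 249 of 1793 in the control pool (13.9%, interval 12.4 to 15.6%), a difference of 23.0 percentage points (interval 20.3 to 25.6). In blood 801 of 1824 readings were methylated in the sGC pool (43.9%, interval 41.7 to 46.2%) and 447 of 1987 in the control pool (22.5%, interval 20.7 to 24.4%), a difference of 21.4 percentage points (interval 18.5 to 24.3). All 28 cytosines were higher in the sGC pool in both tissues. Single cytosines differed by 6.03 to 32.5 percentage points in the hippocampus (median 17.8) and by 1.15 to 36.6 in blood (median 19.1). A difference of at least 5 points was seen in both tissues at 25 of the 28 core cytosines, where 6.12% of all cytosines listed in both tissues met the same criterion. By the Fisher exact test on the pooled reads, with Benjamini-Hochberg adjusted p below 0.05 over the whole table and at least 5 points, 6 core cytosines were called higher in the hippocampus, against 0.0729% of all cytosines. In blood 7 were called higher, against 0.192%. No core cytosine was called lower, where 0.0391% of all cytosines were called lower in the hippocampus and 0.125% in blood. These calls used the contrast that chose the locus, and nothing is read from them.

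**Figure D1:**
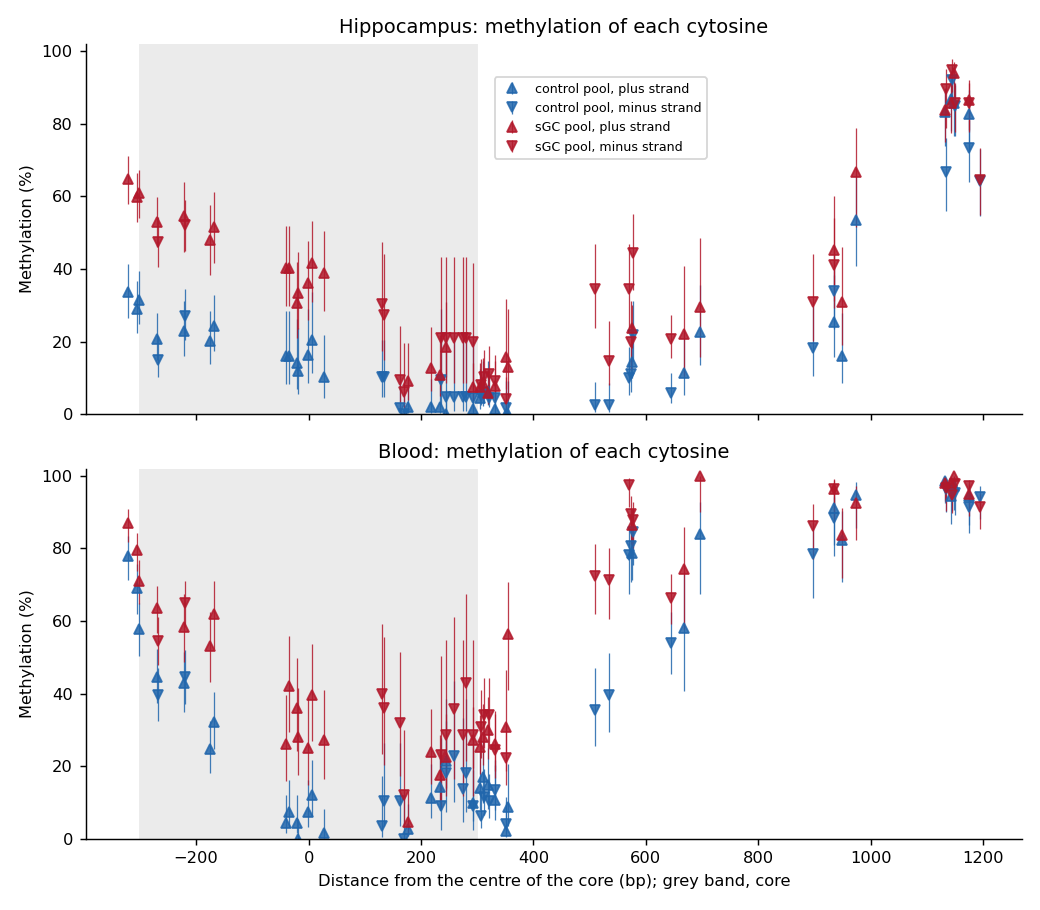
Methylation level (%) of each cytosine of the core (grey band) and of the near flank in hippocampus (top) and blood (bottom), against the distance in bp from the centre of the core. Red, sGC pool; blue, control pool; upward and downward triangles, plus and minus strand; lines, 95% Wilson intervals. All 28 core cytosines lie higher in the sGC pool than in the control pool in both tissues, on the falling side and the floor of a dip in methylation that is wider in the hippocampus than in blood.

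Along the locus, methylation in the control pools fell from the lower edge of the core and rose again above it, with its lowest stretch at the core's centre in blood and in the core's upper part in the hippocampus. The listed cytosines were divided into stretches wherever more than 75 bp, the length of 1 read, separated neighbours. The first stretch ran from 26299879 to 26300031 and held 9 cytosines, of which 6 lay in the core. Its summed methylation was 25.1% in control HPC and 55.5% in sGC HPC, and 49.4% in control blood and 67.8% in sGC blood. The second stretch, 7 cytosines of the plus strand from 26300160 to 26300228, stood at 15.0% and 37.3% in control and sGC HPC. In blood the second stretch stood at 5.29% in the control pool and 32.0% in the sGC pool, a difference of 26.7 points (interval 21.4 to 32.1). The third stretch ran from 26300330 to 26300554 with 26 cytosines, 15 of them in the core, and was the least methylated in the hippocampus, with 3.94% in the control pool and 10.8% in the sGC pool. In blood it stood at 10.8% and 27.4%. The gain was thus highest in hippocampus in the first stretch, at 30.3 points (interval 26.8 to 33.8), and lowest of these 3 stretches in the third, at 6.83 points (interval 5.02 to 8.69). In blood the corresponding gains were 18.4 points (interval 14.9 to 21.8) and 16.6 points (interval 13.8 to 19.3). The gain was larger in the hippocampus at 7 of the 9 cytosines of the first stretch and larger in blood at 20 of the 26 of the third. Whether the gain itself differed between the tissues was not tested, since the selection used both gains.

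Single cytosines showed the same course. The first core cytosine, 26299931 on the plus strand, had 106 of 200 reads methylated in sGC HPC and 31 of 149 in control HPC, and 134 of 211 in sGC blood and 76 of 170 in control blood. Its partner on the minus strand, 26299932, had the largest core difference in the hippocampus, 32.5 points, with 91 of 192 reads methylated against 23 of 154. In blood the same cytosine had 116 of 213 reads methylated in the sGC pool and 67 of 169 in the control pool, a difference of 14.8 points. On the plus and minus strand of this CpG the control level was 20.8% and 14.9% in the hippocampus and 44.7% and 39.6% in blood, and the sGC level was 53.0% and 47.4% in the hippocampus and 63.5% and 54.5% in blood.

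The core cytosine with the most reads in blood, 26299980 on the minus strand, had 139 of 214 reads methylated in sGC blood and 76 of 171 in control blood, a difference of 20.5 points. In the hippocampus it had 100 of 192 reads methylated in the sGC pool and 42 of 156 in the control pool, a difference of 25.2 points. At the end of the first stretch, 26300031 differed by 27.2 points in the hippocampus and by 29.9 in blood, with 97 to 134 reads in each pool. From the lower to the upper end of this stretch the gain in blood rose from 8.94 to 29.9 points while the control level in blood fell from 78.0% to 32.1%. In the hippocampus the gain stayed between 25.2 and 32.5 points over the same cytosines.

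In the second stretch every cytosine was read on the plus strand only, with 48 to 72 reads in each pool. At 26300181 no read was methylated in control blood, 0 of 68, which allows a level of up to 4.41% (3 counts), whereas 14 of 50 were methylated in sGC blood. At 26300166 the counts in blood were 21 of 50 and 5 of 68, a difference of 34.6 points, and in the hippocampus 29 of 72 and 8 of 50, a difference of 24.3 points. At 26300228 the counts in the hippocampus were 28 of 72 and 5 of 49 and in blood 13 of 48 and 1 of 66. In each of the 7 cytosines the sGC pool stood at 25% or more and the control pool at 20.4% or less, in both tissues.

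In the core's part of the third stretch coverage was lowest, with 13 to 25 reads on the minus strand in sGC blood. The largest core difference in blood, 36.6 points at 26300330 on the minus strand, rested on 10 of 25 reads methylated against 1 of 29 (interval 15.0 to 56.0). In the hippocampus the same cytosine had 10 of 33 reads methylated in the sGC pool and 6 of 59 in the control pool. The 3 core cytosines with a gain under 5 points in blood all lay here on the plus strand, at 26300377, 26300434 and 26300444, with 1.95, 3.17 and 1.15 points. At 26300444 control blood already stood at 15 of 70 reads and sGC blood at 14 of 62, whereas control HPC had 0 of 53 reads methylated, which allows up to 5.66%, and sGC HPC 10 of 54. The last core cytosine on the plus strand, 26300492, had 8 of 106 reads methylated against 1 of 66 in the hippocampus, the smallest core difference of that tissue at 6.03 points, and 29 of 107 against 7 of 71 in blood.

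**Figure D2:**
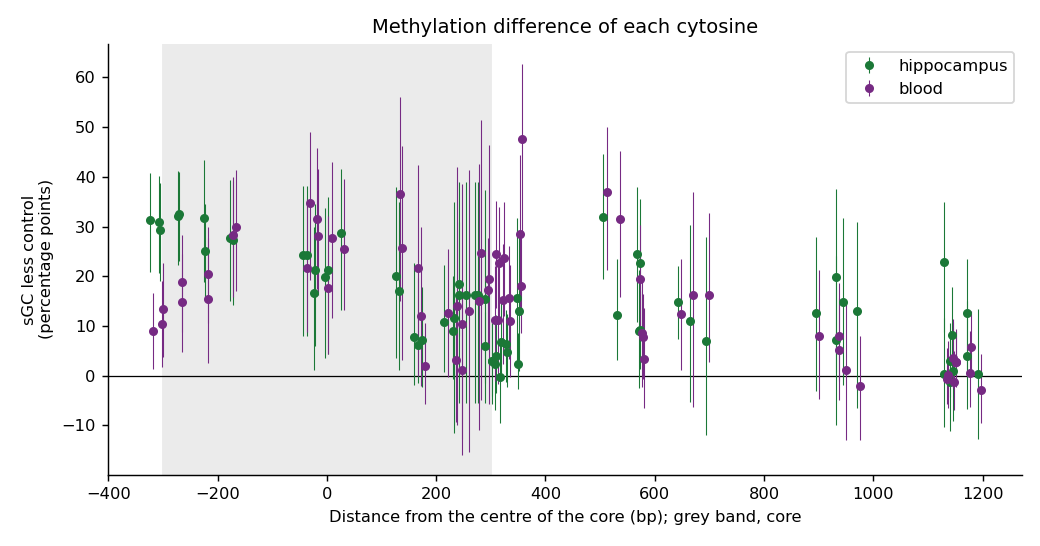
Difference in methylation, sGC less control (percentage points), of each cytosine of the core (grey band) and near flank, against the distance in bp from the centre of the core. Green, hippocampus; purple, blood, each drawn 3 bp to its side of the true position; lines, 95% Newcombe intervals. The hippocampal differences are 25.2 to 32.5 points in the first stretch and -0.33 to 15.6 points at the 11 cytosines just above the core, where those of blood are 11.0 to 47.5 points.

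The edges that the rule set did not coincide with the ends of the gain. Just below the core, outside it, lay 3 cytosines of the plus strand within 1 read length of the first core cytosine. The nearest, 26299898, had 123 of 202 reads methylated in sGC HPC and 48 of 152 in control HPC, a difference of 29.3 points, and 153 of 215 against 100 of 173 in blood, a difference of 13.4 points. The farthest, 26299879, differed by 31.3 points in the hippocampus (131 of 202 against 51 of 152) and by 8.94 in blood (187 of 215 against 135 of 173). Below it no cytosine was listed for 11357 bp, down to 26288522, so the lower end of the gain was not resolved.

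Just above the core, 26300505 on the plus strand had 8 of 106 reads methylated in sGC HPC and 3 of 66 in control HPC, a difference of 3.00 points, and 27 of 107 against 10 of 71 in blood, a difference of 11.1 points. The cytosine 26300506 on the minus strand differed by 2.85 points in the hippocampus and by 24.5 in blood, where 28 of 91 reads were methylated against 6 of 96. The largest difference of the core and near flank in either tissue was at 26300554 in blood, with 22 of 39 reads methylated in the sGC pool against 4 of 45 in the control pool, 47.5 points. In the hippocampus the same cytosine had 4 of 31 reads methylated in the sGC pool and 0 of 38 in the control pool, which allows up to 7.89%. At 26300709 on the minus strand, 209 bp beyond the core, both tissues differed by over 30 points, with 21 of 61 against 2 of 78 in the hippocampus and 58 of 80 against 26 of 73 in blood.

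An unbroken run of listed cytosines with a gain of at least 5 points extended over 615 bp in the hippocampus, from 26299879 to 26300493, with 31 cytosines. In blood the run that began at the same cytosine ended at 26300370, over 492 bp with 20 cytosines, and a further run of 22 cytosines followed from 26300445 to 26300776. Between 26300505 and 26300520 the hippocampal gain was below 5 points, and from 26300554 to 26301173 another run of 15 cytosines differed by at least 5 points in the hippocampus. In blood every one of the 55 cytosines from 26299879 to 26301148, over 1270 bp, was higher in the sGC pool.

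Within 1000 bp of the core lay 37 cytosines, the near flank, with 3 below and 34 above. Summed over these, methylation was 43.2% in sGC HPC and 30.6% in control HPC, a difference of 12.6 points (interval 10.3 to 14.9), and 72.8% against 60.7% in blood, a difference of 12.1 points (interval 9.86 to 14.3). On the upper side alone the hippocampal difference was 8.73 points, and on the lower side 30.5. Above the core the hippocampal difference did not fall steadily with distance, since it was lower in the third stretch than in the fourth and the fifth. In the fourth stretch, 9 cytosines from 26300709 to 26300896, it was 14.8 points in each tissue, with 26.1% against 11.2% in the hippocampus and 81.1% against 66.3% in blood. In the fifth, 26301098 to 26301173, it was 12.8 points in the hippocampus (interval 4.56 to 20.8) and 4.11 in blood (interval -0.846 to 9.21). In the sixth, 26301332 to 26301394, control HPC stood at 79.9% and control blood at 95.2%, and the differences were 5.52 points (interval 1.88 to 9.17) and 1.17 points (interval -0.678 to 3.15). Of the 37 near-flank cytosines 19 gained at least 5 points in both tissues, 51.4% against 6.12% of all cytosines. By the Fisher exact test 4 were called higher in the hippocampus, against 0.0729% of all cytosines, 5 in blood, against 0.192%, and 1, at 26300709, in both. Since this contrast chose the locus and the near flank adjoins the core, nothing is read from these counts.

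In the far flanks, the rest of the window, the pools of a tissue differed little. Of the 312 far-flank cytosines of the hippocampus 178 were higher and 132 lower in the sGC pool, with a median difference of 0.69 points. Of the 307 of blood 160 were higher and 147 lower, with a median of 0.18 points. In the hippocampus 1 far-flank cytosine was called higher, 0.321% against 0.0729% of all cytosines, and in blood none, against 0.192%. None was called lower in either tissue, against 0.0391% and 0.125%. At least 5 points of gain in both tissues was seen at 17 of the 286 cytosines listed in both, 5.94%, near the 6.12% of all cytosines. Readings summed over the far flanks gave 55.5% against 51.1% in the hippocampus and 55.9% against 57.1% in blood, but such sums follow how the reads were spread over cytosines of high and low level, and the difference averaged over single cytosines was 1.24 points in the hippocampus and 0.47 in blood.

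The far flanks were mostly highly methylated with a few groups of low level. The listed cytosines of the window fell into 38 groups separated by more than 1000 bp, 20 below the group that holds the core and 17 above. Among far groups with at least 5 cytosines, the control level had a median of 85.7% in the hippocampus (17 groups) and 91.8% in blood (15 groups), and the difference ranged from -7.56 to 4.15 points in the hippocampus and from -5.57 to 3.80 in blood. The core's gain of 23.0 and 21.4 points lay above the range of these groups, as its selection on that gain implies. The core is only a part of its group, whereas the far groups are whole. The whole group that holds the core, 76 cytosines from 26299879 to 26303238, differed by 12.9 points in the hippocampus and 13.2 in blood. Smaller groups reached 12.3 points in the hippocampus and, at a single cytosine with 18 and 14 reads, 39.7 in blood. The 4 cytosines from 26401043 to 26401118 differed by 9.98 points in the hippocampus (interval 4.68 to 15.2) and 4.96 in blood (interval 2.13 to 7.94). Within the group that starts at 26363654, its first 5 cytosines in the hippocampus and first 9 in blood each gained at least 5 points, with means of 15.8 and 9.49.

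Low methylation was not particular to the core. The group from 26336023 to 26336914, with 49 cytosines in the hippocampus and 56 in blood, stood at 9.26% in control HPC, 10.3% in sGC HPC, 8.62% in control blood and 8.22% in sGC blood. The group from 26417612 to 26417682, 11 cytosines, stood at 1.35%, 3.57%, 5.03% and 4.30% in the same order. The group from 26425051 to 26425466 stood at 3.23%, 2.17%, 1.81% and 1.09%. In these 3 groups the difference between the pools of a tissue was between -1.05 and 2.21 points.

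**Figure D3:**
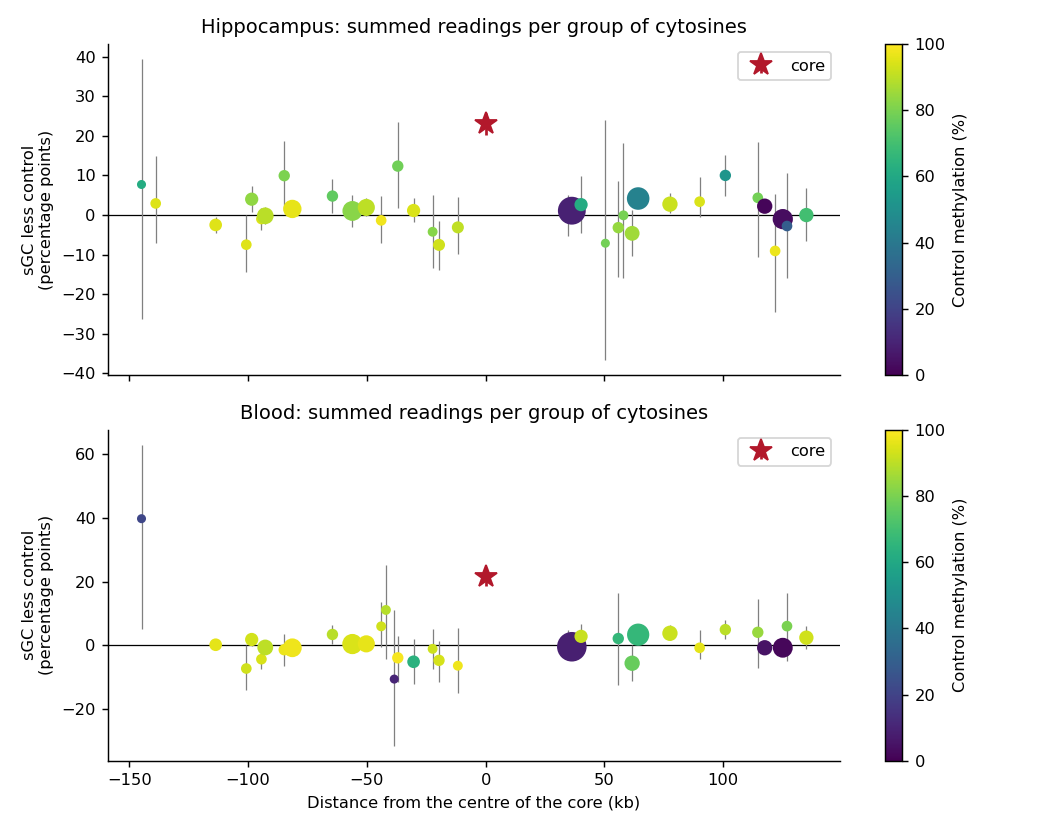
Difference in methylation, sGC less control (percentage points), of readings summed over each group of cytosines in the window, against the distance in kb from the centre of the core, for hippocampus (top) and blood (bottom). Circles, groups separated by more than 1000 bp, their area growing with the number of cytosines and their color giving the control level (%); star, core; lines, 95% Newcombe intervals. The core stands at 23.0 and 21.4 points. Far groups with at least 5 cytosines lie between -7.56 and 4.15 points, the low-methylated groups (dark) included. Of the group that holds the core only the core is drawn. That whole group differed by 12.9 points in the hippocampus and 13.2 in blood.

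Of the core's CpGs, 5 were listed on both strands, and in both tissues all 5 had a higher level in the sGC pool on each strand. The core was chosen for a gain with sGC, so this agreement in sign follows from the selection and nothing is read from it. In the hippocampus both strands gained at least 5 points at all 5, against 6.11% of all CpGs listed on both strands. In blood they did so at 3, against 4.45%. At the CpG of 26299931 the gains on the plus and minus strand were 32.2 and 32.5 points in the hippocampus and 18.8 and 14.8 in blood. At the CpG of 26299979 they were 31.7 and 25.2 points in the hippocampus and 15.5 and 20.5 in blood. At the CpG of 26300492 they were 6.03 and 15.5 points in the hippocampus and 17.2 and 19.5 in blood. The strands stood further apart in blood at 26300434, with 3.17 points on the plus strand and 13.99 on the minus, and at 26300444, with 1.15 and 10.4, where the minus strand had 13 and 14 reads in the sGC pool.

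Summed over all core cytosines of a strand, the 16 of the plus strand stood at 36.4% against 14.6% in the hippocampus and at 40.4% against 19.8% in blood. The 12 of the minus strand stood at 37.9% against 12.6% in the hippocampus and at 50.98% against 28.9% in blood. The gains were 21.7 and 25.3 points in the hippocampus and 20.6 and 22.1 in blood. The cytosines of the strands are mostly different CpGs, so these levels are not matched.

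Strand against strand within a pool was not part of the selection and was tested by the Fisher exact test, with Benjamini-Hochberg adjustment over all CpGs listed on both strands. No core CpG was called in any of the 4 pools, where 1.73% of all CpGs were called in sGC HPC, 1.47% in control HPC, 1.18% in sGC blood and 1.15% in control blood. With only 5 core CpGs and shares this low, 0 calls were likely in any case. The test therefore cannot show that the strands of the core agree. In the near flank 1 of 11 CpGs was called, in sGC HPC, at 26300776, where the plus strand stood at 23.6% (47 of 199) and the minus strand at 44.4% (36 of 81, adjusted p = 0.0483 by the Fisher exact test). In the far flanks the sign of the difference between sGC and control was the same on both strands at 33 of 61 CpGs in the hippocampus and 36 of 63 in blood, near the 52.9% and 53.5% of all CpGs. In the near flank this sign was the same at 9 of 11 CpGs in both tissues. Since the contrast of sGC with control chose the locus and the near flank adjoins the core, nothing is read from that count.

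**Figure D4:**
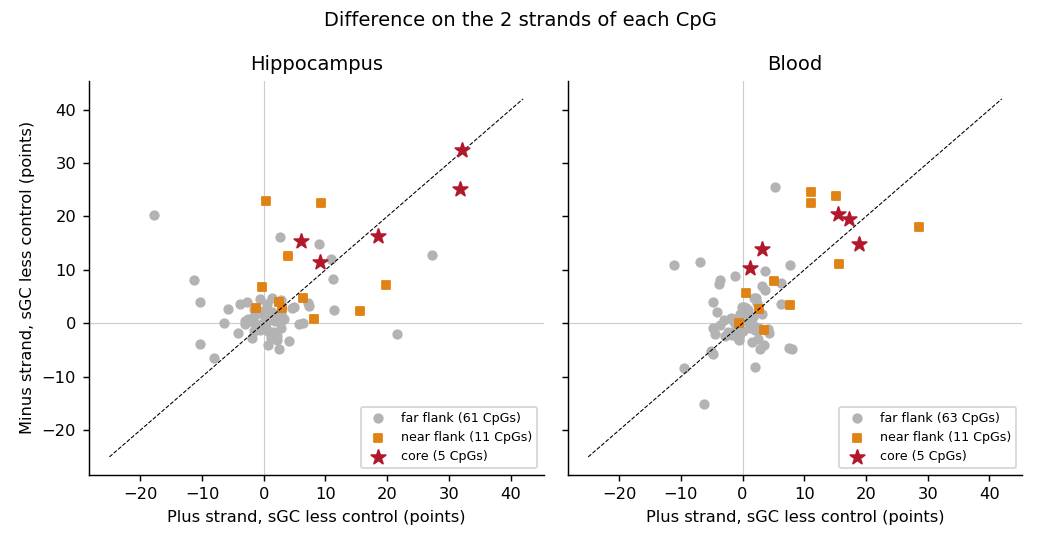
Difference in methylation, sGC less control (percentage points), on the plus strand (horizontal) and the minus strand (vertical) of each CpG of the window listed on both strands, in hippocampus (left) and blood (right). Stars, core; squares, near flank; circles, far flank; dashed line, equal difference on both strands. All 5 core CpGs lie above 0 on both axes in both tissues, as the selection of the core on that gain implies, and the far-flank CpGs gather around 0.

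Blood was also compared with the hippocampus within the control pools and within the sGC pools, a contrast that the selection did not use. Calls rest on the Fisher exact test on pooled reads, with Benjamini-Hochberg adjusted p below 0.05 over all 2564116 cytosines listed in both tissues and at least 5 points. They compare pools of the same animals and say nothing of the spread between animals. Neighbouring cytosines share reads, so their calls are not independent.

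Summed over the near flank, blood was far more methylated than the hippocampus, but the calls in the control pools were not spread evenly along it. Control blood stood at 60.7% and control HPC at 30.6%, a difference of 30.2 points (interval 27.8 to 32.5), with blood higher at all 37 cytosines and called higher at 21, 56.8%, against 16.0% of all cytosines. None was called lower, against 4.64%. In the third stretch 1 cytosine was called higher in the control pools, and it lay in the core. The near-flank cytosines of that stretch, just above the core, were thus not called. Among them, 26300506 stood at 6.25% in control blood and 5.31% in control HPC. In the sGC pools blood was called higher at 31 of the 37, 83.8%, against 16.7% of all cytosines, and at none lower, against 5.40%. All 9 cytosines of the fourth stretch and all 5 of the fifth were called higher in blood in both the control and the sGC pools. At 26300776 control blood had 114 of 145 reads methylated and control HPC 26 of 181, 64.3 points apart (adjusted p = 1.59e-30, Fisher exact test). In sGC blood 146 of 169 reads were methylated at this cytosine and in sGC HPC 47 of 199. At 26300774 control blood stood 69.7 points above control HPC, and at 26300709, the first cytosine of the fourth stretch, 33.1 points above it.

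Summed over the core, the tissues were closer. Control blood stood at 22.5% and control HPC at 13.9%, a difference of 8.61 points (interval 6.16 to 11.0), and 5 of the 28 cytosines, 17.9%, were called higher in blood, near the 16.0% of all cytosines. Of these 5, 4 lay in the first stretch, and the other was 26300444, at 21.4% in blood and 0 of 53 reads in the hippocampus (adjusted p = 0.00105, Fisher exact test). In the second stretch the order was turned, with control blood below control HPC at all 7 cytosines, with differences of -12.0 to -8.47 points, of which 26300181 was called lower (adjusted p = 0.0261, Fisher exact test). In the sGC pools the core stood at 43.9% in blood and 36.9% in the hippocampus, 7.05 points apart (interval 3.92 to 10.2), and 2 of 28 were called higher in blood, 7.14% against 16.7% of all cytosines, and none lower, against 5.40%. Fewer reads allow fewer calls, and in sGC blood the median coverage was 50 reads in the core against 98 over all cytosines. The shares called in the core and over all cytosines are therefore not matched for coverage.

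The dip in methylation was therefore wider in the hippocampus than in blood. Control HPC stayed at 29.4% or below through the first 5 stretches, 26299879 to 26301173, and reached 79.9% in the sixth. Control blood stood at 49.4% in the first stretch, fell to 5.29% in the second and 10.8% in the third, and was back at 66.3% in the fourth. In both tissues the summed level of the sGC pool was above that of its control in each of the first 5 stretches, although in blood the interval of the fifth difference held 0. In blood the lowest stretch was the second in the control pool, at 5.29%, and the third in the sGC pool, at 27.4%. In the seventh to ninth stretches, from 26302126 to 26303238, the summed level was 86.4% or more in all 4 pools. The summed differences between sGC and control there were -4.50 to 5.87 points. A single cytosine of the seventh stretch, described under Other observations, stood lower, at 44.7% in sGC HPC and 54.5% in sGC blood. Its differences were -27.6 and -24.2 points.

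In the far flanks blood was called higher at 52 of 286 cytosines in the control pools, 18.2% against 16.0% of all cytosines, and lower at 6, 2.10% against 4.64%. In the sGC pools 48 were called higher, 16.8% against 16.7%, and 8 lower, 2.80% against 5.40%. The shares called higher were thus near those of all cytosines. The 52 calls in the control pools were spread over 14 groups, among them 15 of 29 cytosines between 26363654 and 26365125, all 4 between 26401043 and 26401118, and all 3 between 26426890 and 26427175, where 84 of 105 readings were methylated in control blood and 26 of 88 in control HPC. In the group from 26269678 to 26270060 the order was turned, with 64.0% in control blood and 94.3% in control HPC and 4 of 6 cytosines called lower in blood.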

How the data were processed

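RRBS reads of 75 bp were trimmed with Trim Galore, aligned with Bismark 0.16.0 and sorted with SAMtools 1.7 per the labels, on cavPor3 per the study's methods. The authors deposited, per tissue, the counts of methylated reads and the coverage (total reads) at each cytosine, added up across the 6 animals per group. These are raw numbers, with at least 10 reads in each pool. A deposited adjusted p-value (FDR) column of the authors' MethPipe comparison of sGC with control was not used. Groups were taken from the sample labels.

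Levels, differences, Wilson and Newcombe intervals and two-sided Fisher exact tests were computed from the counts in Python 3.11.15 with numpy 2.4.6, scipy 1.17.1 and numba 0.67.0, and checked on simulated data. Benjamini-Hochberg adjustment ran over each whole table. The core, its edges and the window were chosen with earlier results of these data known, as were the lists of positions. Cytosines were described at the core's ends and edges, at the largest difference and most reads per tissue, at run ends, per read segment and for CpGs listed on both strands. Stretches (gaps of 75 bp) and groups (gaps of 1000 bp) were defined after the positions were seen, and other cytosines named were chosen after their values were seen. Batches and single animals are not kept in the pooled columns. Alternatives were coverage minimums of 20 and 50 reads, equal weights, single strands, 1 cytosine per read segment, a core wider by 500 bp, minimum differences of 10 points or none, adjusted p below 0.01 and summed strands.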

Additional observations from a re-analysis of the deposited data

How the results depend on the processing

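The core gain stayed positive under every alternative, at 18.8 to 25.3 points in the hippocampus and 19.4 to 22.1 in blood. It moved beyond its summed interval only in the hippocampus. There it was 18.8 points with equal weight per cytosine and 19.0 with the core widened by 500 bp at each edge. That interval takes readings as independent and is too narrow. With the widened core the near-flank difference became 9.25 points in the hippocampus and 2.13 in blood. The near-flank difference in the hippocampus was 30.5 points on the lower side and 8.73 on the upper, a split chosen after the data were seen. In blood it was 8.51 points on the plus strand, 15.6 on the minus strand and 9.32 with 1 cytosine per read segment. The far-flank difference in the hippocampus was 1.24 points with equal weights, 5.89 on the plus strand, 2.87 on the minus strand, 3.52 with 1 cytosine per read segment, 1.06 on the lower side and 5.85 on the upper. In blood the far-flank difference of -1.16 points changed sign to 0.47 with equal weights and to 0.91 on the upper side. Core cytosines called between tissues in the sGC pools numbered 1 at adjusted p below 0.01, against 2. With CpG strands summed, 1 of the core's 23 CpGs was called. Core cytosines called with sGC numbered 4 to 6 in the hippocampus and 5 to 7 in blood. With CpG strands summed, 4 of 23 CpGs were called in the hippocampus and 8 of 23 in blood. The calls with sGC used the contrast that chose the locus, and nothing is read from them. No paired analysis was possible because the deposited columns sum the animals of a group and do not keep the animal, and no replicate could be left out for the same reason. A difference carried by 1 animal or 1 batch cannot be told apart from one shared by all 6.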

Other observations

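At 26302240 on the minus strand, 1740 bp above the core's upper edge, methylation was lower with sGC in both tissues, opposite to the core. In the hippocampus 38 of 85 reads were methylated in the sGC pool and 73 of 101 in the control pool, a difference of -27.6 points (adjusted p = 0.0946, Fisher exact test). In blood 54 of 99 and 78 of 99 reads were methylated, a difference of -24.2 points (adjusted p = 0.0973, Fisher exact test). Neither passed the threshold.

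The far-flank cytosine called higher in the hippocampus was 26377806 on the minus strand, with 110 of 143 reads methylated in sGC HPC and 23 of 52 in control HPC, a difference of 32.7 points (adjusted p = 0.0258, Fisher exact test). In blood 95 of 122 and 31 of 57 reads were methylated, a difference of 23.5 points that did not pass the threshold (adjusted p = 0.259, Fisher exact test).

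Of the window's CpGs listed on both strands, 4 of 77 had unequal strands by the Fisher exact test in sGC HPC (5.19% against 1.73% of all CpGs), 2 of 77 in control HPC (2.60% against 1.47%), and 1 of 79 in each blood pool (1.27% against 1.18% in sGC and 1.15% in control). The CpG at 26417681 was called in all 4 pools, with 21 to 39 reads on the plus strand and 90 to 152 on the minus strand. It stood at 100% on the plus strand and 0% on the minus strand in control HPC and at 97.4% and 0.735% in sGC HPC. In blood it stood at 95.2% and 1.32% in the sGC pool and at 100% and 2.22% in the control pool. The summed level of its group was 5.03% or less in every pool. At 26364823 sGC HPC stood at 94.9% on the plus strand (37 of 39) and 64.0% on the minus strand (128 of 200, adjusted p = 0.00377 by the Fisher exact test). At 26244103 control HPC stood at 97.0% on the plus strand (32 of 33) and 1.85% on the minus strand (1 of 54), and sGC HPC at 92.9% (26 of 28) and 0% (0 of 60).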
